A study of Mus musculus with 12 samples.

Results

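The proteasome core and regulatory subunits were 31 genes, taken by symbol from the 24318 genes of the deposited table: Psma1 to Psma7, Psmb1 to Psmb7, Psmc1 to Psmc6 and 11 Psmd genes. RNA with a poly(A) tail was sequenced from immortalized mouse embryonic fibroblasts, all of them without functional Maff, Mafg and Mafk. The groups were T-N2G cells with DEM, T-N2G cells with vehicle, mock cells with DEM and mock cells with vehicle, with 3 libraries in each. T-N2G is a single chain in which Nrf2 and MafG are tethered (the genotype label spells it T-NG2), and DEM is diethyl maleate, an electrophile that reacts with glutathione, given at 100 µM for 12 h. The labels do not give the promoter behind T-N2G, whether the cells were 1 clone or a pool, or the age of the embryos. They also do not say whether libraries of a group came from separate cultures, so p-values measure the spread between these libraries, which may be technical.

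The proteasome is the protease that degrades ubiquitin-tagged proteins. Its core particle is a barrel of alpha and beta rings, in which Psmb5, Psmb6 and Psmb7 hold the proteolytic sites and the alpha rings form the gates. The regulatory particle has a base, with a ring of ATPases (Psmc genes) that unfold substrates, and a lid, where Psmd14 removes ubiquitin. In mammals Nfe2l1 (Nrf1), a relative of Nrf2 that also pairs with small Maf proteins, is known to induce the subunit genes together when proteasome activity falls. Nrf2 has been linked to some of them under electrophiles.

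Upstream sequences are shown because the subunit genes are known as targets of factors that bind antioxidant response elements. RefSeq promoter windows (build GRCm38.p6, from 250 bases before to 50 after the start) were found by symbol for 25 of the 31 genes, in 27 windows. Psmb1, Psmb2, Psmb7, Psmc3, Psmd3 and Psmd7 had no entry. The core of the element, TGACNNNGC with N for any base, was searched on both strands, and so was CCAAT, a common promoter box. The element stood in windows of 4 genes, at -47 to -39 from the start in Psmb5 (TGACGTCGC), at -9 to -1 in Psmb6 (TGACGGAGC), at -227 to -219 on the other strand in Psmc6 (TGACTTAGC) and at -247 to -239 on the other strand in Psmd12 (TGACACAGC). It stood in 12.4% of all 32851 windows of the same length. CCAAT stood in windows of 10 of the genes and in 37.4% of all windows. The 250 bases before the start are given 5′ to 3′ on the gene's strand for Psma5 (chr3:108256676-108256925, plus strand) and Psmd11 (chr11:80428365-80428614, plus strand), which rose in T-N2G over mock cells under DEM, and for the proteolytic subunits Psmb5 (chr14:54617996-54618245, minus strand) and Psmb6 (chr11:70525107-70525356, plus strand), which were not called there. Capitals mark the element.
Psma5: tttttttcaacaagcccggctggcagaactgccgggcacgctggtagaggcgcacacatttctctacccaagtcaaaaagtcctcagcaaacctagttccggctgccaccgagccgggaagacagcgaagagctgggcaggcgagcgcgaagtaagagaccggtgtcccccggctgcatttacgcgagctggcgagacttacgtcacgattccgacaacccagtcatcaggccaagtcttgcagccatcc
Psmd11: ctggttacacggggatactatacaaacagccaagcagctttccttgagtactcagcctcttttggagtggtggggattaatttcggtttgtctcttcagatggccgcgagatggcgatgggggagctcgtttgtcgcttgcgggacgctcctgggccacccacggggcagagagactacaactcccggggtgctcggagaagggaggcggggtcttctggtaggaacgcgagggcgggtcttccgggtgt
Psmb5: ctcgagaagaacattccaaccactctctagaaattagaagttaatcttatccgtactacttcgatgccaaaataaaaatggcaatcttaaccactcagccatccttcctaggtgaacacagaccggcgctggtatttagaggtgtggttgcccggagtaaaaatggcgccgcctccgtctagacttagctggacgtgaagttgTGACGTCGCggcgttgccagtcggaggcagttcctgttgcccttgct
Psmb6: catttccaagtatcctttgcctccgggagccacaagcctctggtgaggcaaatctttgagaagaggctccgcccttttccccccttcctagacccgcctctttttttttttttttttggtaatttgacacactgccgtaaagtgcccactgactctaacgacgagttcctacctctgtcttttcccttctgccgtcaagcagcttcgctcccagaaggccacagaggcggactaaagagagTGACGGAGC
The windows of Psma5 and Psmd11 held neither motif in these 250 bases. Among the genes with the element, Psmc6 rose in T-N2G over mock cells under DEM in 1 fit (edgeR with the replicate number as a block, adjusted p = 0.039). Without the block its adjusted p was 0.455. Psmb5, Psmb6 and Psmd12 were not called there. A match or its absence is a description of these letters only.

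Library totals lay between 18863560 and 23095692 fragments, and each subunit gene had 897 to 6298 fragments per library, so all 31 passed the filter on low counts. Mafg stood at 121 ± 22.2 and 137 ± 27.9 CPM in T-N2G cells with DEM and with vehicle, against 0.877 ± 0.0563 and 0.514 ± 0.0394 CPM in mock cells with DEM and with vehicle (SD, n = 3 each). CPM are counts scaled to the effective library size. Fibroblast markers were abundant, with 10 of 12 above 10 CPM (Lum and Dcn were below), and they summed to 12950 to 15950 CPM in T-N2G DEM, 15680 to 20040 in T-N2G vehicle, 15020 to 18090 in mock DEM and 15870 to 19250 in mock vehicle. The 12 markers of other cell types summed to 13.4 to 19.6 CPM per library, and among them Tubb3 alone exceeded 10 CPM. The 4 Y-linked genes Ddx3y, Eif2s3y, Kdm5d and Uty summed to 20.7 to 24.9 CPM in the T-N2G libraries and to 11.5 to 16.2 CPM in the mock libraries. Whether that bears on the differences between T-N2G and mock cells was not tested.

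The subunit genes were abundant and close to each other in level. Scaled by transcript length, their mean FPKM over the 12 libraries lay between 52.0 in Psmd6, a lid subunit, and 233 in Psmb3, a structural beta subunit, with a median of 103 FPKM against 11.3 FPKM over all 12469 tested genes. By subcomplex the median FPKM was 165 for the 4 beta subunits without a proteolytic site, 134 for the 3 with one, 103 for the alpha ring, 102 for the base ATPases, 86.8 for the other base subunits (Psmd1, Psmd2 and Psmd4) and 75.9 for the lid. The lid held both low and high members, since Psmd8 stood at 161 FPKM, at rank 5 of the 31. Of the 30 pairs of neighbours in this order 4 differed by more than the larger of their SDs over n = 12 libraries (Psmb3 over Psma4, Psmb6 over Psmc5, Psmd2 over Psmd4 and Psma3 over Psmc4), and the others did not. Psmb3 had 233 FPKM and Psma4, next to it, 179 FPKM. Pseudogenes are annotated under the names of 4 members (Psma5, Psmb5, Psmb6 and Psmb7), and exons of 8 overlap another annotated gene (Psma4, Psma5, Psmb5, Psmb7, Psmc3, Psmd1, Psmd3 and Psmd13). The strand setting and the handling of shared reads are not given in the sources used here, so the levels of these genes are uncertain to that extent.

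**Figure D1:**
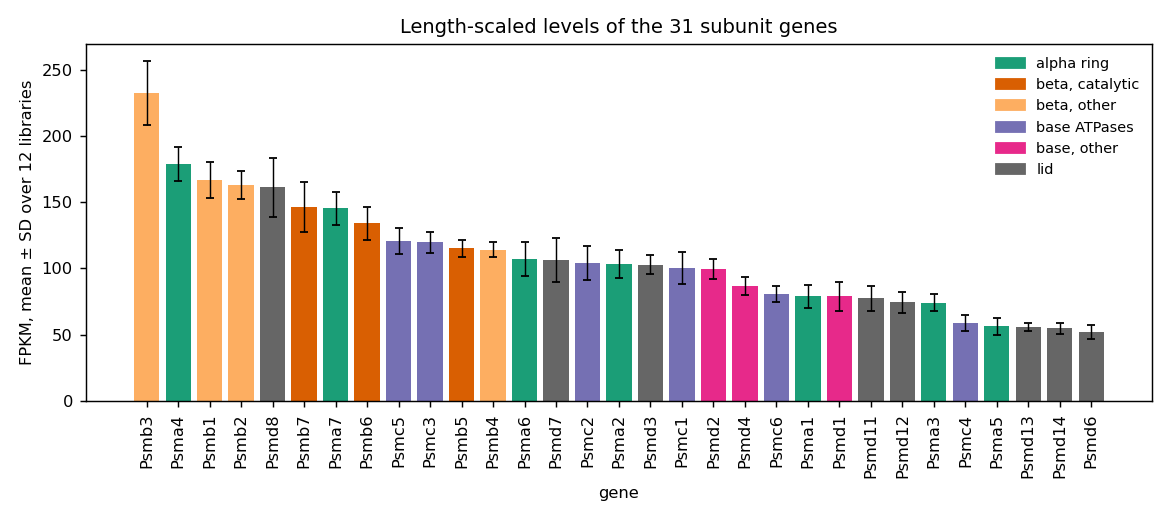
Mean FPKM (vertical axis, bars) of the 31 subunit genes over the 12 libraries, with SD as error bars, ordered from highest to lowest and coloured by subcomplex. Psmb3 is highest at 233 FPKM and Psmd6 lowest at 52.0 FPKM, and beta subunits fill much of the upper part of the order.

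The CPM of the 31 genes summed to 4038, 3645 and 4106 in the T-N2G DEM libraries and to 4167, 3723 and 4093 in T-N2G vehicle, in the order of replicates 1, 2 and 3, as in all lists of values by library. The sums were 3646, 3360 and 3563 CPM in mock DEM and 4195, 3593 and 3871 CPM in mock vehicle. Replicate 2 had the lowest sum in every group, while mock DEM had the lowest sum at each replicate number. Replicate 3 did not rank alike in all genes. The 3 proteolytic subunits had their highest sum in replicate 3 in every group (313 CPM in T-N2G DEM and 296 CPM in mock DEM). Psmd1, a base scaffold, was lowest in replicate 3 in every group. Averaged over libraries the sums were 3930 ± 249 CPM in T-N2G DEM, 3994 ± 238 in T-N2G vehicle, 3523 ± 147 in mock DEM and 3886 ± 301 in mock vehicle (SD, n = 3 each). Over the 31 genes, deviations from the group means correlated between libraries of the same number with r from 0.311 to 0.842 (18 pairs of libraries), so libraries of the same number shared a profile over these genes. Tests are therefore given without and with the replicate number as a block, and a call is an adjusted p under 0.05 in edgeR's quasi-likelihood test, Benjamini-Hochberg over all 12469 tested genes. The fit without the block is the main one, and it leaves what same-number libraries shared within its spread. As a coefficient of variation this spread was 0.110, against 0.0428 with the block. The other fit is named "with the block".

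**Figure D2:**
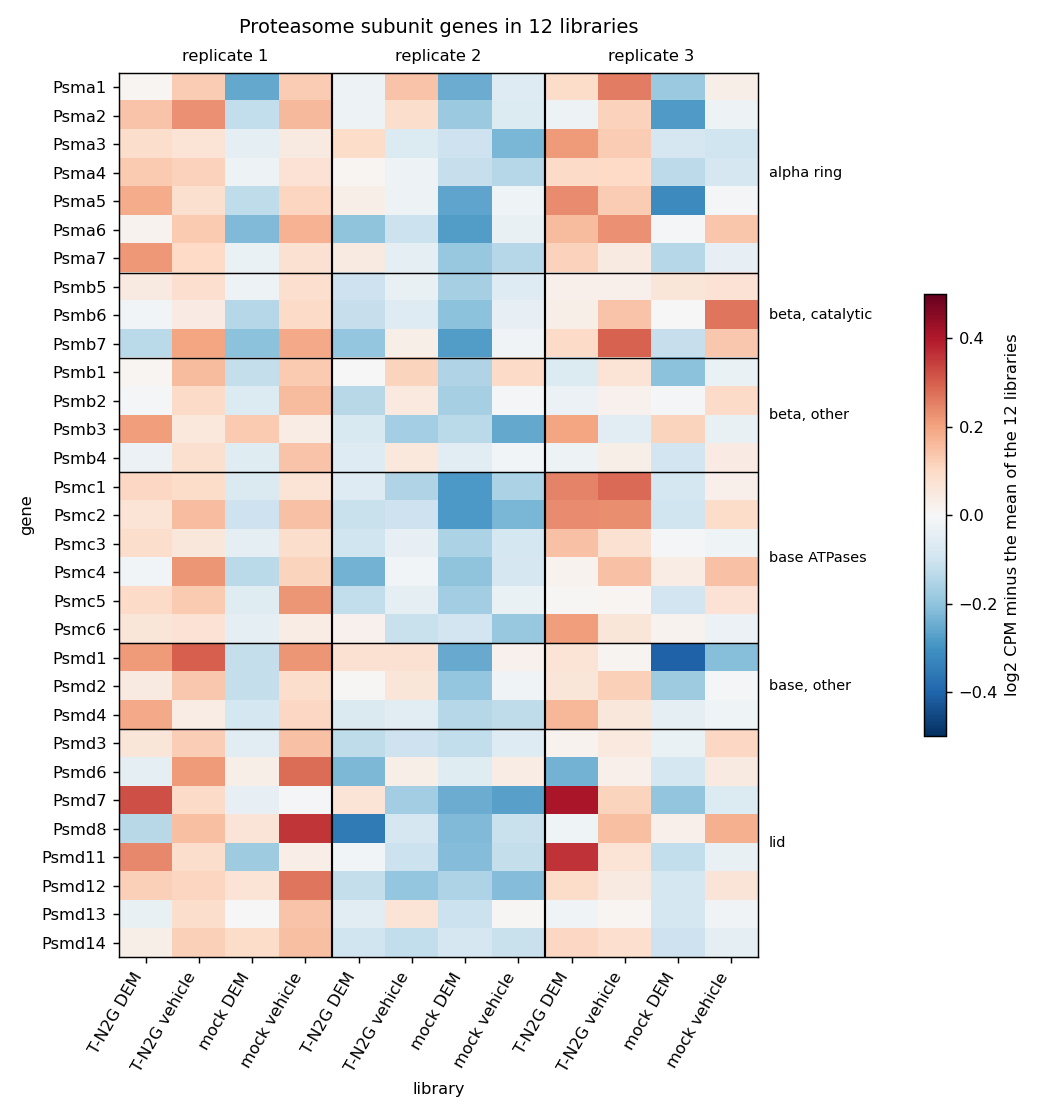
Log2 CPM of each subunit gene minus its mean over the 12 libraries (colour, red above and blue below the mean), with genes in rows by subcomplex and libraries in columns by replicate number. The mock DEM column is the bluest within most replicate blocks, and replicate 2 is lower than replicates 1 and 3 in most genes.

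DEM lowered many subunit transcripts in mock cells. With DEM, 28 of the 31 genes had a negative log2 fold change in mock cells, with a median of -0.13 against -0.01 over all tested genes. Without the block 5 genes fell (Psma1, Psma5, Psmb1, Psmb7 and Psmd2) and none rose, where 6.18% of all tested genes were called lower and 7.76% higher. With the block 19 fell and 1 rose (Psmb3), where 21.9% of all tested genes were called lower and 20.9% higher. DESeq2 called the same number without the block, 5 lower and none higher, where 7.72% of all tested genes were called lower and 9.22% higher. The largest of these falls was 1.23-fold, so the change was small for each gene and shared by many. In bulk RNA, fewer cells of a type and less RNA per cell cannot be told apart.

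In the core particle 9 of the 14 genes fell with the block, where 21.9% of all tested genes were called lower. Psmb7, the subunit with the trypsin-like site, had 97.0, 92.2 and 103 CPM in mock DEM, against 128, 111 and 123 CPM in mock vehicle. The groups did not overlap, and the log2 fold change was -0.30 ± 0.09 (SE; adjusted p = 0.0489, edgeR). Psmb6, with the caspase-like site, had 102, 97.1 and 112 CPM in mock DEM, against 120, 109 and 135 CPM in mock vehicle. Its groups overlapped, yet each DEM library lay below the vehicle library of the same number, and the call came with the block alone (log2 -0.22 ± 0.04, adjusted p = 0.000320, against 0.104 without it). Psmb5, the subunit with the chymotrypsin-like site that proteasome inhibitors bind, had 75.9, 68.8 and 80.5 CPM in mock DEM, against 81.9, 73.8 and 81.2 CPM in mock vehicle. It was not called in either fit (log2 -0.07 ± 0.07, adjusted p = 0.542 without the block and 0.179 with it).

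In the alpha ring Psma1 had 69.8, 70.1 and 73.3 CPM in mock DEM, against 90.9, 79.7 and 84.9 CPM in mock vehicle (log2 -0.26 ± 0.06, adjusted p = 0.0218). Psma5, also of the alpha ring, had 52.3, 47.7 and 45.9 CPM in mock DEM, against 61.7, 56.3 and 56.7 CPM in mock vehicle (log2 -0.26 ± 0.08, adjusted p = 0.0423). In both genes every DEM library lay below every vehicle library. With the block Psma2 and Psma6 fell too, while Psma3, Psma4 and Psma7 had log2 values of 0.01, -0.04 and -0.09 and were not called. Of the beta subunits without a proteolytic site, Psmb1 had 129, 126 and 121 CPM in mock DEM, against 153, 149 and 136 CPM in mock vehicle (log2 -0.22 ± 0.06, adjusted p = 0.0233). Psmb2 and Psmb4 fell with the block. Psmb3 went the other way, with 134, 112 and 132 CPM in mock DEM, against 126, 103 and 119 CPM in mock vehicle, and it rose with the block (log2 0.12 ± 0.04, adjusted p = 0.0205, against 0.473 without it).

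In the regulatory particle 10 of the 17 genes fell with the block, where 21.9% of all tested genes were called lower. Psmd2, a base scaffold that docks ubiquitin carriers, had 254, 242 and 245 CPM in mock DEM, against 294, 273 and 275 CPM in mock vehicle. These groups did not overlap (log2 -0.18 ± 0.05, adjusted p = 0.0334). Psmc5, a base ATPase, had 125, 115 and 122 CPM in mock DEM, against 152, 127 and 137 CPM in mock vehicle. It fell with the block (log2 -0.20 ± 0.04, adjusted p = 0.000730, against 0.113 without it), as did Psmc1, Psmc2 and Psmc4. The lid subunit Psmd6 had 58.2, 54.7 and 53.6 CPM in mock DEM, against 69.3, 58.5 and 58.8 CPM in mock vehicle. It fell with the block (log2 -0.16 ± 0.04, adjusted p = 0.00824, against 0.225 without it), and so did Psmd3, Psmd8 and Psmd11. The other base subunit Psmd1 also fell with the block, whereas Psmc3, Psmc6, Psmd4, Psmd7, Psmd12, Psmd13 and Psmd14 were not called in either fit.

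Counted without a fit, 23 of the 31 genes were lower with DEM in all 3 pairs of mock libraries with the same number, as were 34.5% of all tested genes, and 1 was higher in all 3, as were 32.6%. The groups did not overlap in 11 genes, all lower with DEM, where 16.3% of all tested genes were lower and 17.2% higher in that way. The median log2 fold change was -0.21, -0.10 and -0.13 in pairs 1, 2 and 3. Calls without the block were lost on leaving out any 1 library of the compared groups, in part or as a whole. Leaving out mock vehicle replicate 1 or mock DEM replicate 2 ended all 5. Without mock DEM replicate 1 there were 2, and without mock vehicle replicate 2, mock vehicle replicate 3 or mock DEM replicate 3 there was 1. Library codes of replicates 1 and 2 run together and those of replicate 3 stand apart, with no statement of what they mean. Replicates 1 and 2 alone gave 0 calls without the block and 17 falls with it.

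Under DEM many subunit genes had higher levels in T-N2G than in mock cells. Here 29 of the 31 genes had a positive log2 fold change, with a median of 0.14 against -0.00 over all tested genes. Psma5, Psmd7 and Psmd11 rose without the block and no gene fell, where 2.61% of all tested genes were called higher and 1.11% lower. With the block 16 rose and none fell, where 10.3% were called higher and 9.32% lower. By DESeq2 6 rose (Psma1, Psma5, Psmd1, Psmd2, Psmd7 and Psmd11) and none fell, where 3.56% were called higher and 2.07% lower. The 2 genes with negative values were lid subunits, Psmd6 (log2 -0.13 ± 0.05, adjusted p = 0.0529 with the block) and Psmd8 (log2 -0.12 ± 0.05, adjusted p = 0.0861 with the block). The mock DEM libraries also enter the DEM comparison in mock cells, so the values of both comparisons share those 3 libraries.

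The alpha ring rose as a whole with the block, 7 of 7 genes, where 10.3% of all tested genes were called higher. The log2 values ran from 0.16 in Psma6 to 0.39 in Psma5. Psma5 had 65.1, 58.4 and 67.4 CPM in T-N2G DEM, against 52.3, 47.7 and 45.9 CPM in mock DEM. The groups did not overlap, and the difference was 1.31-fold (log2 0.39 ± 0.08, adjusted p = 0.0123). Psma1 had 83.7, 81.7 and 88.6 CPM in T-N2G DEM, against 69.8, 70.1 and 73.3 CPM in mock DEM (log2 0.25 ± 0.06, adjusted p = 0.0529 without the block and 0.00103 with it). DESeq2 called Psma1 without the block too (adjusted p = 0.0143). Psma7, with 1.19-fold, was called by edgeR with the block (adjusted p = 0.000116), and neither by edgeR nor by DESeq2 without it.

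The lid rose in 2 of its 8 genes in both fits, where 2.61% of all tested genes were called higher without the block and 10.3% with it. Psmd7, the partner of the deubiquitinase Psmd14 in the lid, had 186, 156 and 197 CPM in T-N2G DEM, against 145, 125 and 130 CPM in mock DEM. This 1.35-fold difference was the largest among the subunits (log2 0.43 ± 0.11, adjusted p = 0.0462), and the groups did not overlap. Psmd11, a lid scaffold that also contacts the core, had 141, 118 and 153 CPM in T-N2G DEM, against 106, 103 and 110 CPM in mock DEM (log2 0.38 ± 0.09, adjusted p = 0.0365). The other 6 lid genes were not called in either fit. Psmd14 itself had a log2 value of 0.04 ± 0.09 (adjusted p = 0.907).

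All 3 of the other base subunits and 3 of the 6 ATPases (Psmc1, Psmc2 and Psmc6) rose with the block. Of all tested genes 10.3% were called higher in that fit. Psmd1, the largest base scaffold, had 279, 254 and 252 CPM in T-N2G DEM, against 222, 203 and 182 CPM in mock DEM (log2 0.37 ± 0.11, adjusted p = 0.107 without the block and 1.35e-05 with it). Psmd1 is given by library because of its values. Psmd2 had 285, 278 and 288 CPM in T-N2G DEM, against 254, 242 and 245 CPM in mock DEM (log2 0.20 ± 0.05, adjusted p = 0.0526 without the block and 0.000698 with it). In both genes the T-N2G libraries lay above the mock libraries without overlap. Psmc5 had 139, 120 and 131 CPM in T-N2G DEM, against 125, 115 and 122 CPM in mock DEM, and it was not called (log2 0.11 ± 0.08, adjusted p = 0.627 without the block and 0.0759 with it).

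The proteolytic subunits were not called. Psmb5 had 79.8, 71.9 and 78.6 CPM in T-N2G DEM, against 75.9, 68.8 and 80.5 CPM in mock DEM (log2 0.03 ± 0.07, adjusted p = 0.907 without the block and 0.651 with it). Psmb6 had 111, 104 and 114 CPM in T-N2G DEM, against 102, 97.1 and 112 CPM in mock DEM (log2 0.08 ± 0.09, adjusted p = 0.768 and, with the block, 0.174). Psmb7 had 102, 97.7 and 120 CPM in T-N2G DEM, against 97.0, 92.2 and 103 CPM in mock DEM (log2 0.13 ± 0.09, adjusted p = 0.616 and, with the block, 0.0801). The groups overlapped in each of them. Among the remaining beta subunits Psmb1 rose with the block (1.10-fold, adjusted p = 0.0129), while Psmb2, Psmb3 and Psmb4 had log2 values of 0.02, 0.07 and 0.03 and were not called.

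By library, 22 of the 31 genes were higher in all 3 same-number pairs of T-N2G and mock DEM libraries and 2 were lower, against 23.8% and 24.8% of all tested genes. The groups did not overlap in 13 genes, all higher in T-N2G cells, where 10.3% of all tested genes were higher and 9.35% lower in that way. The medians in pairs 1, 2 and 3 were 0.13, 0.08 and 0.19. Calls without the block were again lost on leaving out any 1 of several libraries of the compared groups. Leaving out T-N2G DEM replicate 1, T-N2G DEM replicate 3, mock DEM replicate 2 or mock DEM replicate 3 ended all 3, and leaving out mock DEM replicate 1 left 1. Replicates 1 and 2 alone gave 0 calls without the block and 10 rises with it.

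**Figure D3:**
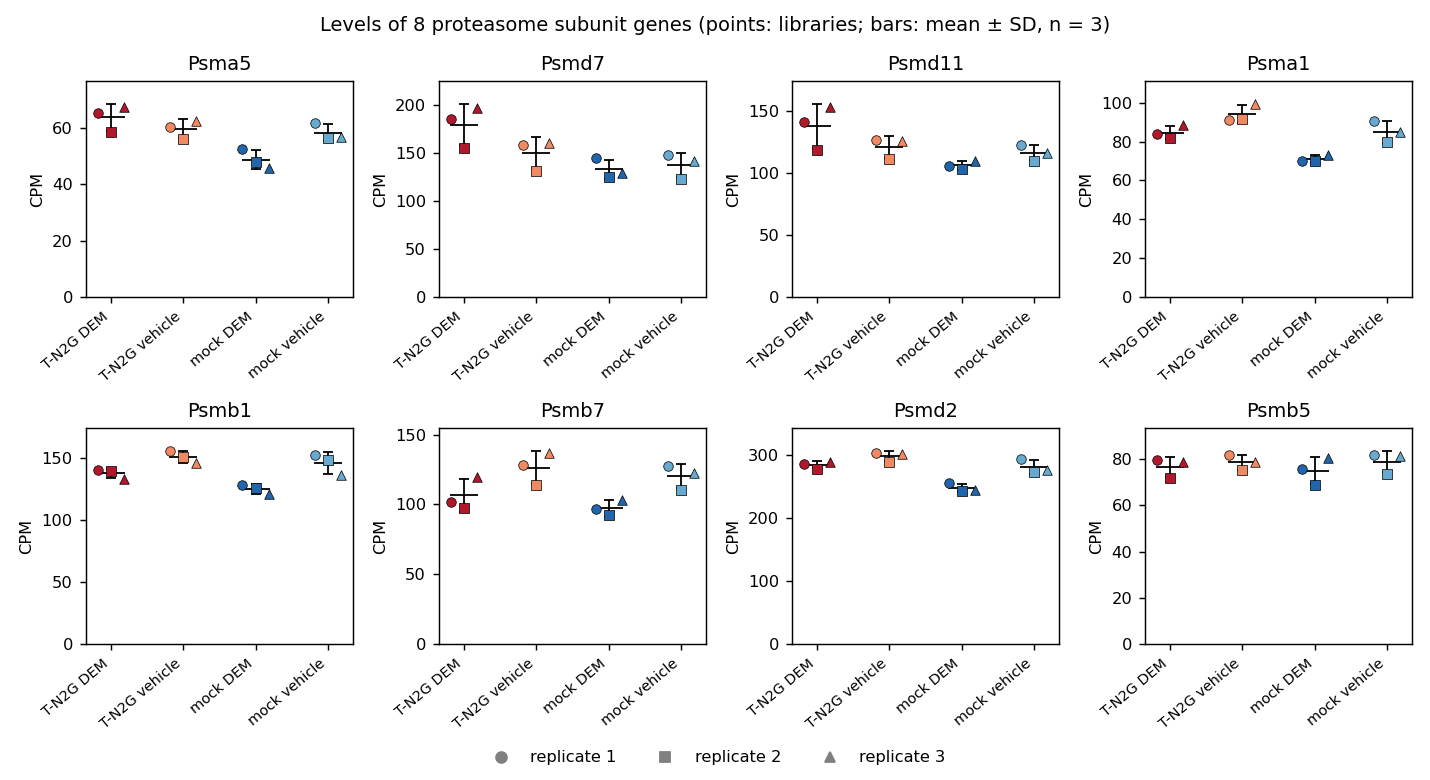
CPM (vertical axis, from 0) of 8 subunit genes in T-N2G DEM, T-N2G vehicle, mock DEM and mock vehicle libraries, with points for libraries, shapes for replicate numbers and bars for mean ± SD (n = 3). Psma5, Psmd7 and Psmd11 are highest in T-N2G DEM, Psma1, Psmb1 and Psmd2 are lowest in mock DEM, and Psmb5 is at 68.8 to 81.9 CPM in all 12 libraries.

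In vehicle no subunit gene was called between T-N2G and mock cells by edgeR without the block, with it or by DESeq2. Of all tested genes 0.305% were called higher and 0.00802% lower without the block, 3.06% and 3.24% with it, and 0.658% and 0.209% by DESeq2. At an unadjusted p under 0.05 there was 1 gene without the block, 7 with it and 1 by DESeq2. The log2 values ran from -0.08 in Psmd8 to 0.14 in Psma1, with a median of 0.04. Psma1 had 90.9, 91.9 and 99.3 CPM in T-N2G vehicle, against 90.9, 79.7 and 84.9 CPM in mock vehicle (log2 0.14 ± 0.06, adjusted p = 0.768 without the block and 0.0782 with it). It was the 1 gene whose groups did not overlap, where 5.11% of all tested genes were higher and 5.09% lower in that way. Psma5 had 60.4, 56.1 and 62.5 CPM in T-N2G vehicle, against 61.7, 56.3 and 56.7 CPM in mock vehicle (log2 0.03 ± 0.08, adjusted p = 0.992). Psmd7 and Psmd11 had log2 values of 0.13 ± 0.11 and 0.06 ± 0.09 (adjusted p = 0.978 and 0.992). Of the 31 genes, 14 were higher and 4 lower in all 3 pairs, against 21.2% and 21.7% of all tested genes.

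Within T-N2G cells the calls for DEM went in both directions and depended on the block. Without the block none was called (5 at an unadjusted p under 0.05, and 1, Psmd6, lower by DESeq2), where 10.1% of all tested genes were called higher and 7.55% lower. With the block 4 rose (Psma7, Psmb3, Psmd7 and Psmd11) and 8 fell (Psma1, Psma2, Psmb1, Psmb2, Psmb7, Psmc4, Psmd6 and Psmd8), where 22.8% were called higher and 22.2% lower. The falls among the subunit genes were thus near the share over all tested genes and the rises below it. DESeq2 called 8.7% of all tested genes lower. The median log2 value over the 31 genes was -0.03. Psmd7 had 186, 156 and 197 CPM in T-N2G DEM, against 159, 132 and 161 CPM in T-N2G vehicle (log2 0.26 ± 0.05, adjusted p = 0.000355 with the block, 0.122 without). Psmd11 had 141, 118 and 153 CPM in T-N2G DEM, against 127, 111 and 125 CPM in T-N2G vehicle (log2 0.18 ± 0.05, adjusted p = 0.00773 with the block, 0.178 without). Both were higher with DEM in each pair, although the groups overlapped.

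The falls in T-N2G cells reached the same size. Psmb7 had 102, 97.7 and 120 CPM in T-N2G DEM, against 128, 114 and 137 CPM in T-N2G vehicle (log2 -0.25 ± 0.05, adjusted p = 0.000418 with the block, 0.0849 without). The groups overlapped, with each DEM library below its pair. Psmd6 had 55.1, 48.8 and 48.4 CPM in T-N2G DEM, against 66.0, 58.1 and 58.0 CPM in T-N2G vehicle (log2 -0.26 ± 0.05, adjusted p = 0.000214 with the block, 0.0587 without). Here the groups did not overlap. Psmb3 rose with the block as it did in mock cells, with 142, 116 and 141 CPM in T-N2G DEM, against 127, 109 and 118 CPM in T-N2G vehicle (log2 0.17 ± 0.04, adjusted p = 0.00259). In all 3 pairs 7 genes were higher and 16 lower, against 33.7% and 35.2% of all tested genes, and 6 genes had groups that did not overlap, all lower, where 15.6% of all tested genes were lower and 18.2% higher in that way. Leaving out T-N2G DEM replicate 2 gave 1 rise without the block, and leaving out T-N2G DEM replicate 1, T-N2G DEM replicate 3 or T-N2G vehicle replicate 2 gave 1 fall.

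**Figure D4:**
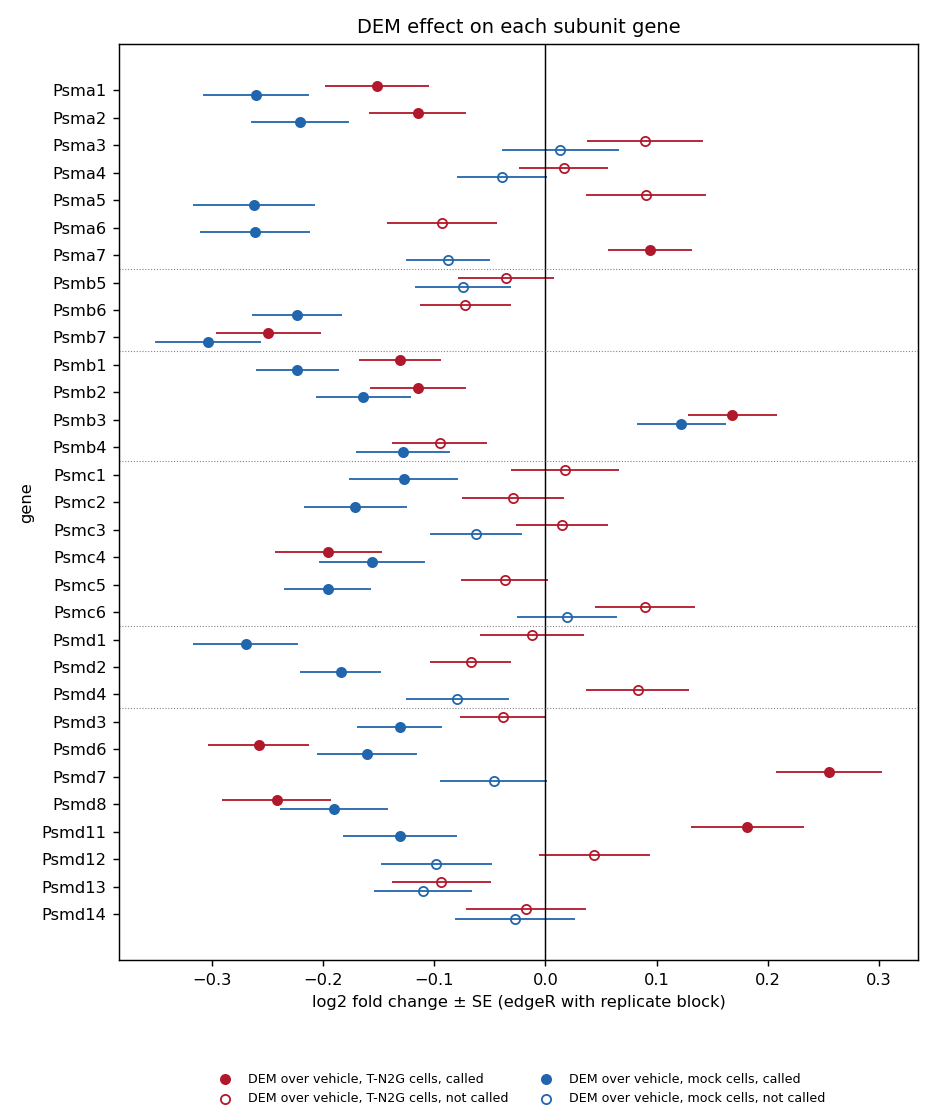
Log2 fold change ± SE of DEM over vehicle for each subunit gene (horizontal axis) in T-N2G cells (red) and mock cells (blue), from edgeR with the replicate block, with filled points for calls. Most blue points lie left of 0 and left of the red ones, and Psmd7 and Psmd11 have red points right of 0 at 0.26 and 0.18.

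The effects of DEM in T-N2G and mock cells were then compared by the interaction of construct and treatment. Without the block no gene was called by edgeR (2 at an unadjusted p under 0.05) or by DESeq2 (2 likewise), where edgeR called 0.417% of all tested genes higher and 0.016% lower and DESeq2 0.666% and 0.12%. With the block 4 genes had a more positive DEM effect in T-N2G cells and none a more negative one, where 1.82% and 0.978% of all tested genes were called. These were Psma5 (difference of log2 values 0.35 ± 0.08, adjusted p = 0.0143), Psmd11 (0.31 ± 0.07, adjusted p = 0.0220), Psmd7 (0.30 ± 0.07, adjusted p = 0.0179) and Psmd1 (0.26 ± 0.07, adjusted p = 0.0436). Each of the 4 had a positive difference in all 3 pairs, from 0.19 to 0.43. In replicates 1 and 2 alone, with the block, the adjusted p values of the 4 were 0.0504 (Psma5), 0.112 (Psmd11), 0.0993 (Psmd7) and 0.0595 (Psmd1). Over the 31 genes the median difference was 0.09, and 23 had a positive and 1, Psmd6, a negative difference in all 3 pairs, against 19.5% and 17.7% of all tested genes. Psma5, Psma7 and Psmd11 were lower with DEM in all 3 mock pairs and higher with DEM in all 3 T-N2G pairs, a pattern of 1.68% of all tested genes.

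The rest of the pathway was described from lists chosen with results of these data known. Of 8 tested assembly chaperones 1 rose in T-N2G over mock cells under DEM without the block, where 2.61% of all tested genes were called higher. With the block 2 rose (Psmd5 and Pomp) and Psmd10 fell, where 10.3% were called higher and 9.32% lower. The gene called without the block was Psmd5, a chaperone of the base that leaves before the proteasome is complete, with 117 ± 5.86 CPM in T-N2G DEM, against 71.0 ± 1.85 CPM in mock DEM (SD, n = 3 each; log2 0.72 ± 0.07, adjusted p = 5.19e-05). It stayed called without any 1 of the 6 libraries. DEM raised it in T-N2G cells (117 ± 5.86 CPM with DEM and 87.5 ± 5.79 CPM with vehicle; log2 0.42 ± 0.07, adjusted p = 0.00231). In mock cells it had 71.0 ± 1.85 CPM with DEM and 77.2 ± 5.15 CPM with vehicle and was not called (log2 -0.12 ± 0.07, adjusted p = 0.272). The difference of these effects was 0.54 ± 0.10 (adjusted p = 0.0360). That call was kept in 1 of 12 fits that each left out 1 library, with the highest adjusted p, 0.138, without mock DEM replicate 3. Pomp, the chaperone of the core, had log2 values of 0.23 ± 0.06 in T-N2G over mock cells under DEM and -0.18 ± 0.05 with DEM in mock cells, and both were called with the block alone (adjusted p = 0.00760 and 0.0153).

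Activators went different ways. Psme4, the single-chain activator PA200 of nuclear proteasomes, had 263 ± 3.71 CPM in T-N2G DEM, 193 ± 9.94 in T-N2G vehicle, 217 ± 12.8 in mock DEM and 192 ± 13.2 in mock vehicle. It rose in T-N2G over mock cells under DEM (log2 0.28 ± 0.07, adjusted p = 0.0339) and with DEM in T-N2G cells (log2 0.44 ± 0.07, adjusted p = 0.00113). The first of these calls was kept in 1 of 6 fits that each left out 1 library, with an adjusted p of 0.186 without mock DEM replicate 3. With the block Psme4 also rose with DEM in mock cells (log2 0.17), where 20.9% of all tested genes were called higher. Psmf1, an inhibitor of the core, fell with DEM in mock cells (26.1 ± 0.465 CPM with DEM and 32.1 ± 1.95 CPM with vehicle; log2 -0.30 ± 0.07, adjusted p = 0.0167) and in T-N2G cells (log2 -0.23 ± 0.07, adjusted p = 0.0383). These calls were kept in 3 and 2 of 6 such fits, with adjusted p values of up to 0.0660 without mock DEM replicate 2 and 0.116 without T-N2G vehicle replicate 1. Psme1, Psme2 and Psme3, of the PA28 family, were not called without the block in any comparison. With the block Psme1 and Psme2 fell in T-N2G over mock cells under DEM (log2 -0.17 ± 0.06 and -0.39 ± 0.07, adjusted p = 0.0483 and 0.000551) and with DEM in T-N2G cells (log2 -0.15 ± 0.06 and -0.19 ± 0.07, adjusted p = 0.04996 and 0.0340).

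Of 13 proteasome-bound receptors and deubiquitinases, 2 rose in T-N2G over mock cells under DEM without the block and 7 rose and 1 fell with it, where 2.61% of all tested genes were called higher without the block, and 10.3% higher and 9.32% lower with it. Zfand5, which is known to stimulate proteasomes, had 68.3 ± 2.94 CPM in T-N2G DEM, 47.0 ± 1.43 in T-N2G vehicle, 51.3 ± 2.36 in mock DEM and 44.0 ± 1.05 in mock vehicle. It rose in T-N2G over mock cells under DEM (log2 0.41 ± 0.06, adjusted p = 0.00124), with DEM in T-N2G cells (log2 0.54 ± 0.06, adjusted p = 0.000189) and with DEM in mock cells (log2 0.22 ± 0.06, adjusted p = 0.0295). The last of these was kept in 1 of 6 fits that each left out 1 library (0.113 without mock DEM replicate 1), the others in all 6. AI314180, the mouse symbol of the adaptor Ecm29, rose in T-N2G over mock cells under DEM (305 ± 13.2 CPM in T-N2G DEM and 256 ± 2.44 CPM in mock DEM; log2 0.25 ± 0.05, adjusted p = 0.0215), a call kept in 1 of 6 such fits (0.119 without mock DEM replicate 3). Zfand2a, a stress-induced relative of Zfand5, rose with DEM in mock cells (log2 0.33 ± 0.08, adjusted p = 0.0241), kept in 2 of 6 (0.0932 without mock DEM replicate 2).

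Transcripts of Nfe2l1, the regulator, changed in 2 comparisons without the block, which share the mock DEM libraries. Nfe2l1 had 303 ± 7.88 CPM in T-N2G DEM, 276 ± 2.86 in T-N2G vehicle, 352 ± 9.72 in mock DEM and 294 ± 8.76 in mock vehicle. Nfe2l1 rose with DEM in mock cells (log2 0.26 ± 0.05, adjusted p = 0.00660), and stayed called without any 1 library. In that fit 5 subunit genes fell there, where 6.18% of all tested genes were called lower. Under DEM 3 subunit genes rose in T-N2G over mock cells without the block, where 2.61% of all tested genes were called higher. Nfe2l1 was lower in that comparison (log2 -0.22 ± 0.05, adjusted p = 0.0275). That call was kept in 1 of 6 fits that each left out 1 library (0.117 without mock DEM replicate 3). With DEM in T-N2G cells Nfe2l1 was called higher with the block (log2 0.13 ± 0.04, adjusted p = 0.0100) and by DESeq2 (adjusted p = 0.0227). It was not called there by edgeR without the block (adjusted p = 0.0842). With the block 4 subunit genes rose there and 8 fell, where 22.8% of all tested genes were called higher and 22.2% lower. Nfe2l1 protein and its processing were not measured. Of 10 genes around Nfe2l1 processing, Syvn1, the ligase that turns over the membrane-bound factor, rose with DEM in mock cells (log2 0.34 ± 0.09, adjusted p = 0.0268), a call kept in 2 of 6 such fits (0.109 without mock DEM replicate 1). Vcp, the ATPase that extracts the factor from the membrane and feeds proteins to the proteasome, rose in T-N2G over mock cells under DEM (961 ± 30.2 CPM in T-N2G DEM and 798 ± 8.54 CPM in mock DEM; log2 0.27 ± 0.05, adjusted p = 0.0135), a call kept in 3 of 6 such fits (0.0835 without mock DEM replicate 2). With DEM in T-N2G cells, without the block, Vcp was called higher and Fbxw7 lower (log2 -0.29). In that comparison 10.1% of all tested genes were called higher and 7.55% lower. With DEM in mock cells 7.76% were called higher. With the block, 5 of these 10 genes, Nfe2l1 included, rose and 1 fell with DEM in mock cells. Of all tested genes 20.9% were called higher there and 21.9% lower. With DEM in T-N2G cells, with the block, 6 of the 10 rose, Syvn1 among them, and 1 fell. There 22.8% of all tested genes were called higher and 22.2% lower.

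Of the 5 ubiquitin genes described, Ubb and Rps27a fell with DEM in T-N2G cells without the block, where 7.55% of all tested genes were called lower (log2 -0.28 ± 0.09 and -0.26 ± 0.08, adjusted p = 0.0490 and 0.0375). Each of these 2 calls was kept in 1 of 6 fits that left out 1 library, with adjusted p values of 0.141 for Ubb without T-N2G DEM replicate 1 and 0.127 for Rps27a without T-N2G DEM replicate 2. Of the immunoproteasome and tissue-specific subunits, Psmb8 averaged 0.255 to 0.843 CPM and Psmb10 9.14 to 10.4 CPM over the groups and neither was called in any comparison, while Psmb9 and the tissue-specific Psmb11 and Psma8 did not pass the filter on low counts.

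**Figure D5:**
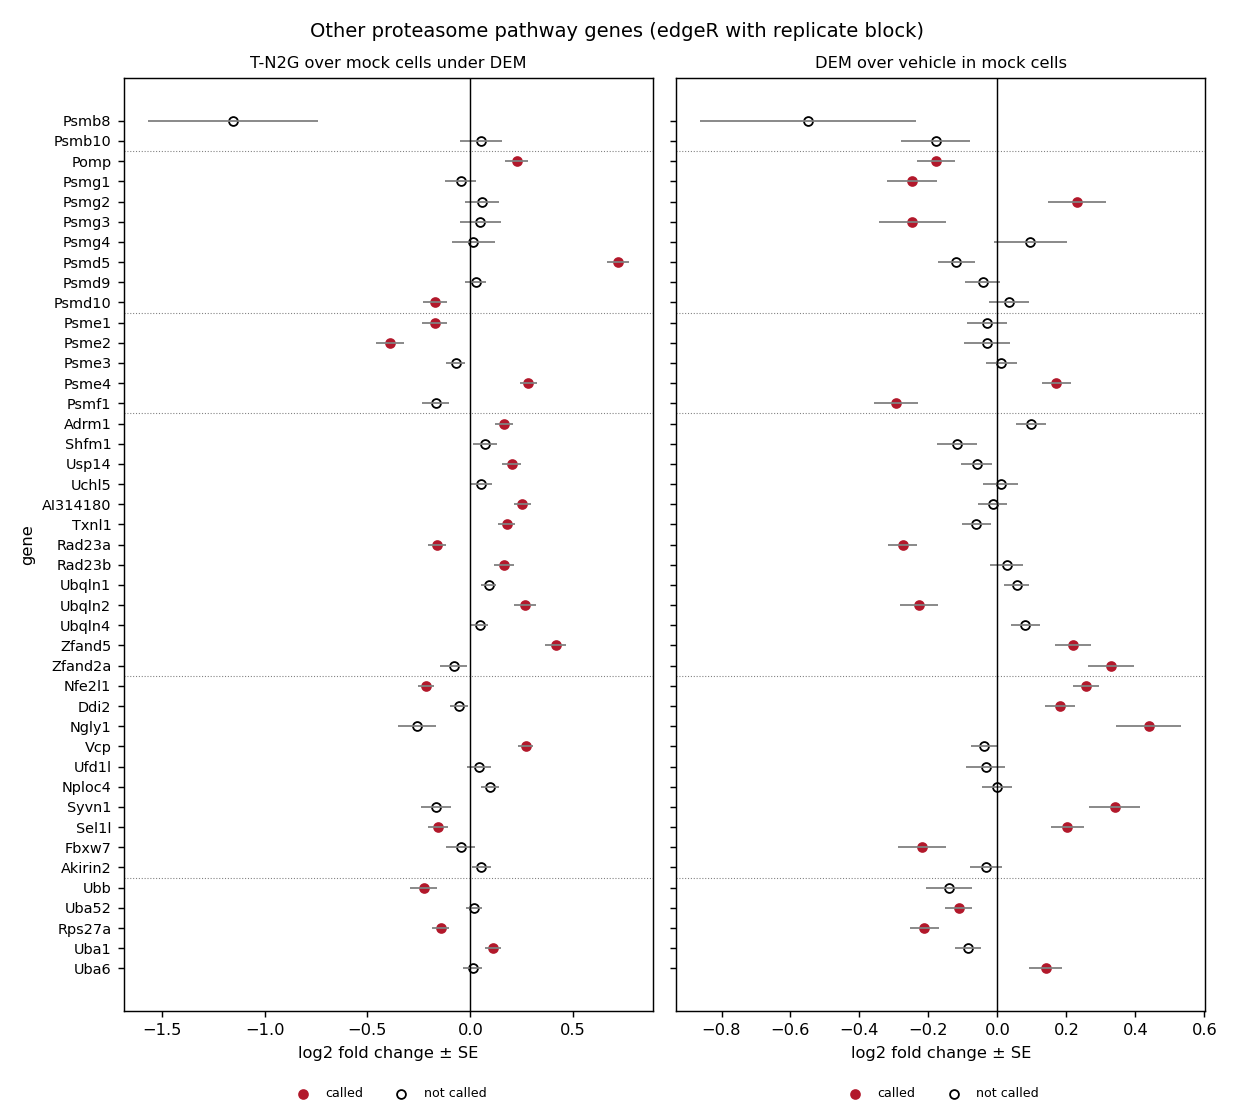
Log2 fold change ± SE of the tested assembly chaperones, activators, receptors, Nfe2l1 processing genes and ubiquitin genes, with Psmb8 and Psmb10 at the top, in T-N2G over mock cells under DEM (left) and DEM over vehicle in mock cells (right), from edgeR with the replicate block, with filled points for calls. Psmd5 lies farthest right on the left side at 0.72 and Ngly1, which is called with the block, on the right side at 0.44.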

How the data were processed

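PolyA RNA of 12 libraries was prepared with a strand-specific kit, per the labels' protocols. Per the submitters' processing notes the build was mm9 and the tools were Cuffdiff 2.1.1, TopHat2 2.0.8b and bcl2fastq 2.16.0.10. Strand setting and annotation are not given in the sources used here. The authors deposited an estimated count of fragments and an FPKM value per gene and library, per the file headers. The 2 other value columns, scaled fragments, were not used. Of the estimated counts 98.3% were whole numbers (tolerance 0).

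Counts were rounded, filtered with filterByExpr (minimum count 10, minimum total 15), which left 12469 genes, scaled by TMM (factors 0.980 to 1.028) and fitted over all 12 libraries with edgeR 4.0.16 in R 4.3.3, with 1 coefficient per group (biological coefficient of variation 0.110, or 0.0428 with the replicate block). SE was taken as the size of a log2 fold change over the root of its F statistic. DESeq2 1.42.0 and limma 3.58.1 on log2(FPKM + 1) were alternatives, with others given below. The fit without the block was run on simulated counts that held no effect shared by same-number libraries. That run therefore does not bear on the fit with the block. Library totals were 18863560 to 23095692 fragments, and the spread between libraries is the error given.

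The replicate number comes from the sample titles. Over all tested genes, deviations from the group means correlated with r from 0.361 to 0.631 between libraries of the same number (18 pairs). Between others r ran from -0.422 to -0.00363 (36 pairs). Deviations within a group sum to 0, so positive values between same numbers bring negative ones between others. Libraries of the same number thus shared a profile, but the labels do not state a pairing.

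Members and lists were chosen with earlier results of these data known. Values by library were given for Psmb5, Psmb6 and Psmb7, for up to 5 called members per comparison, for the smallest adjusted p per subcomplex in the comparison with most calls, and for the highest and lowest FPKM, and up to 4 genes were named per other list. Psma7 and Psmd1 were added for their values. Paaf1 of the chaperone list was not analysed here, and no protein sequence was used here. Results of 1 listed gene are not reported here.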

Additional observations from a re-analysis of the deposited data

Results flagged for a closer look

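Genes are given here whose DEM effect differed between T-N2G and mock cells by the interaction test over all tested genes. With the replicate block, the difference of log2 values (T-N2G minus mock) was 0.352 for Psma5, 0.257 for Psmd1, 0.302 for Psmd7 and 0.312 for Psmd11 among the subunits, and none of the 4 was called without the block. Among the other pathway genes it was 0.273 for Psme4, 0.321 for Zfand5 and 0.211 for Vcp with the block, and none of these was called without it (adjusted p = 0.780, 0.261 and 0.881, edgeR). Psmd5 was called without the block too, with 0.537. Groups of 3 libraries were not searched for single outlying libraries. The interaction uses all 4 groups, so these values share libraries with every other comparison.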

How the results depend on the processing

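No called value changed sign under the alternatives run, and no median over the subunit genes moved beyond the spread between replicates in the settings that kept every library. Counts of called subunit genes depended on the replicate block. In T-N2G over mock cells under DEM 3 genes were called higher, against 6 by DESeq2, 1 by limma on log2(FPKM + 1) and 1 on log2(FPKM + 0.1), 16 with the replicate block, 14 by DESeq2 with it, 0 without replicate 3, and, with the block, 10, 12 and 13 without replicates 3, 1 and 2. With DEM in mock cells 5 were called lower, against 1 with no filter on low counts, 3 by limma with no filter, 19 with the block, 17 by DESeq2 with it, 0 without replicate 3, and, with the block, 17, 10 and 17 without replicates 3, 1 and 2. There 1 was called higher with the block. With DEM in T-N2G cells 0 were called in each direction, against 4 higher and 8 lower with the block, 3 and 6 by DESeq2 with it, 1 lower by DESeq2, and, with the block, 2, 4 and 3 higher and 6, 5 and 4 lower without replicates 3, 1 and 2. For the difference of DEM effects 0 were called higher, against 4 with the block, 4 by DESeq2 with it and 1 with it without replicate 2. In vehicle 1 was called higher with the block without replicate 1.

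Leaving out 1 library at a time gave 0 to 3 higher in T-N2G over mock cells under DEM, 0 to 2 lower with DEM in mock cells, and 0 to 1 in each direction with DEM in T-N2G cells. The medians then ranged from 0.077 to 0.18 in T-N2G over mock cells under DEM, from -0.011 to 0.091 in vehicle, from -0.20 to -0.091 with DEM in mock cells, from -0.097 to 0.012 with DEM in T-N2G cells and from 0.035 to 0.14 for the difference. Of the single-gene values under alternatives, 1851 kept direction and side of the threshold, 312 gained and 195 lost the call.

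With 897 or more fragments per subunit gene and library, the 3 libraries per group limit the precision. The causes of these changes were not tested.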
